A study of Mus musculus with 2 samples.

Results

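The genes of the hypoxia-inducible factors (HIF) and of their regulators were examined in RNA-seq of differentiated female germline stem cells (FGSCs) of the mouse. These were 10 named genes, 10 of the 52309 genes and of the 19127 protein-coding genes to which an ID of the count files could be assigned. They are the alpha subunits Hif1a and Epas1, the beta subunits Arnt and Arnt2, the prolyl hydroxylases Egln1, Egln2 and Egln3, the ubiquitin ligase subunit Vhl, the asparaginyl hydroxylase Hif1an and the target gene Vegfa. A gene's value was the sum of the counts of all its IDs. FGSCs are cultured cells taken from the ovary that are maintained as a germline stem cell line. Both libraries, replicates 1 and 2, belonged to 1 group, FGSCs of CD-1 females labelled as premeiotic interphase. The cells had been kept for 3 days on a monolayer of granulosa cells in medium with 10 µM retinoic acid (RA) and 10 ng/mL BMP4, from which GDNF, EGF and LIF were left out. Undifferentiated FGSCs were not analysed here, so no value below measures an effect of differentiation. Nothing in the labels says that the libraries came from separate cultures, and the spread between them may be technical.

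Cells read oxygen through the stability of the HIF alpha subunits. When oxygen is available, prolyl hydroxylases modify the alpha subunit, VHL recognises the modified form and marks it for degradation, and the asparaginyl hydroxylase FIH, the product of Hif1an, blocks its contact with coactivators. When oxygen is short, the alpha subunit persists, pairs with the beta subunit ARNT and activates genes of glycolysis, of iron and haem handling and of vessel growth, Vegfa among them. Since this control acts on the protein, mRNA levels of the alpha subunits do not measure HIF activity. In the ovary, HIF-driven VEGF is known from the growing follicle and the corpus luteum.

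The depth of the libraries was unequal, with 1517151 counts in replicate 1, spread over 15412 IDs, and 12442 in replicate 2, spread over 4259 IDs. On the scale of counts per 1000000 (CPM), 1 count was worth 0.659 in replicate 1 and 80.4 CPM in replicate 2. The limit set on a count of 0 was 3 counts, which is 1.98 CPM in replicate 1 and 241.1 CPM in replicate 2. Where the libraries were compared by their intervals, the exact interval of a count of 0 was used, which is wider and reaches 2.43 and 296.5 CPM. Intervals given below are exact Poisson 95% intervals for levels and exact binomial (Clopper-Pearson) 95% intervals for shares of counts. PCR reads are not independent molecules, so intervals and limits cover counting error only. Reads on bases shared by several IDs were largely left uncounted, since of the 10320 Ensembl IDs that share each exonic base with another ID, 3 were counted in replicate 1 and 0 in replicate 2, and a gene at 0 may still be transcribed. Markers of the labelled cell type were at or near 0. Of 10 measured germ cell markers, 0 reached 3 counts in either library, against 32.7% and 3.81% of protein-coding genes. Kit, with 1 count in replicate 1, was the only marker with a count, while Ddx4 and Dazl were at 0. The exonic bases of these markers in 1 transcript only ran from 7.52% for Sycp3 to 71.8% for Gdf9. They were 8.43% for Ddx4, 19.3% for Stra8 and 23.1% for Dazl, so 0 counts there say little. Gdf9, Pou5f1 (69.2%) and Figla (66.3%) had more such bases and were also at 0 in both libraries. These percentages are lower bounds where several coding transcripts of a gene lie under 1 protein ID. The study reported Stra8 and Sycp3 by RT-PCR in its RA-treated FGSCs, and Stra8 also by immunofluorescence. Its RT-PCR panel included the germ cell markers Oct4 (Pou5f1), Mvh (Ddx4) and Fragilis as well.

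HIF dimers recognise the short sequences ACGTG and GCGTG, and both were searched on both strands of the 250 bases before the start of transcription in RefSeq (GRCm38.p6, the assembly also called mm10). A RefSeq window was at hand for 9 of the 10 genes, 11 windows in all, and 7 of the 11 (63.6%) held at least 1 match. Of all 32851 such windows, 38.6% held a match, 16.6% one to ACGTG and 28.2% one to GCGTG. Egln3 and Egln1 are shown since they are known both as regulators and as targets of HIF, and Hif1a since its window held the most matches to ACGTG, 3. Capitals mark the matches, on either strand, and each sequence runs 5′ to 3′ on the strand of the gene. The Egln1 sequence is chr8:124949325-124949504 on the minus strand, the Egln3 sequence chr12:54203875-54204124 on the minus strand and the Hif1a sequence chr12:73907617-73907866 on the plus strand.
Egln1: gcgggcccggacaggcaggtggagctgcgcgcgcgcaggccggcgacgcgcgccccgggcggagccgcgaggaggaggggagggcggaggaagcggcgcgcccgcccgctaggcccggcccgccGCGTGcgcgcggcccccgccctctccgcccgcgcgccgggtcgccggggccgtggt
Egln3: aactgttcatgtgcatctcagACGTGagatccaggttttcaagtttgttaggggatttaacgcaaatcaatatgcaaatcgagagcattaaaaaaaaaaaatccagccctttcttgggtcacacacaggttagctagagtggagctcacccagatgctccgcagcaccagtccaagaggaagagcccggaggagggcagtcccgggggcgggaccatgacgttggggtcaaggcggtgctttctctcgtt
Hif1a: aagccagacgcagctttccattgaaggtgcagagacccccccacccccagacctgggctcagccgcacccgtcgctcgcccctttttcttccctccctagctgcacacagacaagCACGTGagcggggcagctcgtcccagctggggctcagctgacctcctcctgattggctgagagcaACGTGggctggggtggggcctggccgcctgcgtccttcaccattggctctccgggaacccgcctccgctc
The Egln1 stretch is the 180 bases of its window that lie outside annotated exons, and it held 1 of the 2 matches of the window. Egln3 had 1 match. In Hif1a, the palindrome CACGTG holds ACGTG once on each strand, and a further match lies downstream of it. The other windows held 1 match for Arnt, 1 and 4 for the pair of Egln2 starts, 2 and 0 for the pair of Vegfa starts, and 0 for Arnt2, Vhl and Hif1an. A match is a description of these letters and was not tested as a binding site.

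In replicate 1, 9 of the 10 genes had a count, against 43.6% of protein-coding genes, and 8 reached 3 counts, against 32.7%. In replicate 2, Epas1 and Arnt2 had a count, against 12.7% of protein-coding genes, and only Epas1 reached 3 counts, against 3.81%. Epas1 was also the only one of the 10 to reach 3 counts in both libraries, as 1.86% of protein-coding genes did. Together the 10 genes held 942 counts, or 620.9 CPM, in replicate 1 and 15 counts, or 1206 CPM, in replicate 2. Egln1 alone gave 573 of the 942 counts, and Epas1 gave 13 of the 15. Levels of different genes are compared below only per length, as FPKM, which is CPM divided by the length of the gene's exons in kilobases. The median FPKM of the protein-coding genes with a count was 2.79 in replicate 1 and 25.6 in replicate 2.

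**Figure D1:**
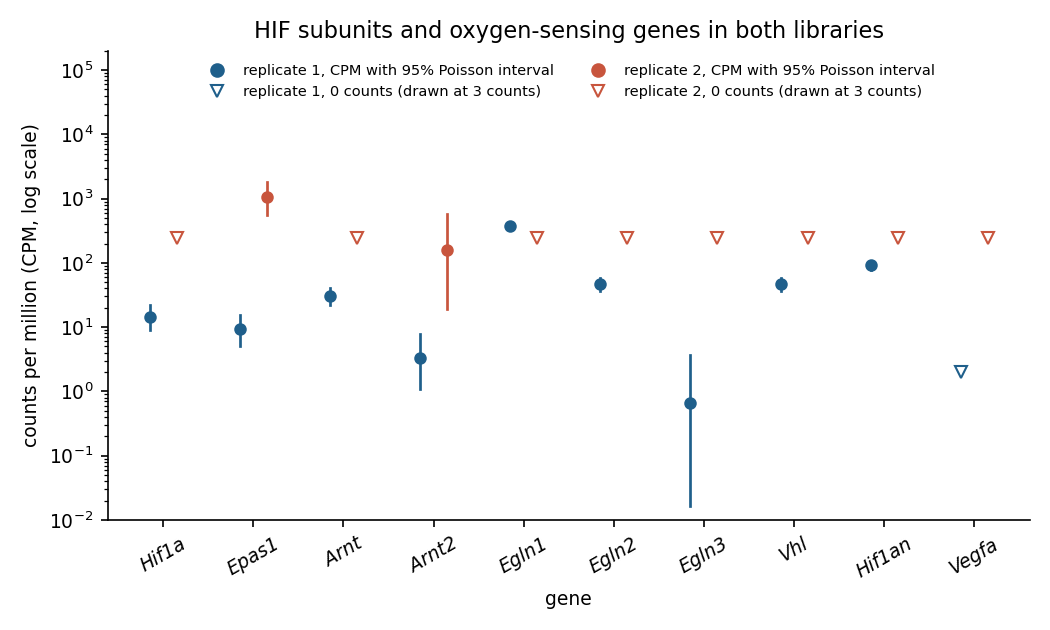
Level of each of the 10 genes in both libraries. CPM is drawn on a log axis with exact Poisson 95% intervals; open symbols mark genes at 0 counts, drawn at the level of 3 counts. Epas1 stood at 9.23 CPM in replicate 1 and 1045 CPM in replicate 2, while Egln1 stood at 377.7 CPM in replicate 1 and had no count in replicate 2.

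Of the alpha subunits, Epas1 was counted in both libraries and Hif1a in 1. Hif1a encodes HIF-1 alpha, the alpha subunit made in most cell types, and lies on chromosome 12, 73901375 to 73947530 on the plus strand. It had 22 counts in replicate 1, which is 14.5 CPM (interval 9.09 to 22.0) or an FPKM of 2.46, and 0 counts in replicate 2. At the CPM of replicate 1, 0.180 counts would have fallen in replicate 2, and 1.71 with the TMM factors of edgeR, both under 3 counts. Epas1 encodes HIF-2 alpha, best known from endothelium, and lies on chromosome 17, 86753700 to 86833410 on the plus strand. It had 14 counts in replicate 1, which is 9.23 CPM (5.04 to 15.5), and 13 counts in replicate 2, which is 1045 CPM (556 to 1787). As FPKM this was 1.65 (0.902 to 2.77) and 187 (99.5 to 320). The CPM of Epas1 was 113 times higher in replicate 2 than in replicate 1 (49.0 to 259.7), a difference beyond counting error between libraries of the same group. Its size rested on the scaling, since the ratio was 11.9 (5.16 to 27.3) with the TMM factors of edgeR and 13.9 (6.03 to 31.9) with the size factors of DESeq2. Both kinds of factor rest on genes counted in both libraries, 1938 for DESeq2. Genes at 0 in replicate 2, where 1 count is worth 80.4 CPM, were left out of them, which can lower the ratio. In replicate 2, 124 of 19127 protein-coding genes had a higher FPKM than Epas1, and in replicate 1, 4757 did.

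Such differences were frequent between these libraries. Over the 9196 protein-coding genes with a count in either library, the CPM intervals of 13.5% did not overlap. Replicate 2 was the higher for 9.57% of the 9196, and for 36.2% of the 2433 genes with a count in replicate 2. Among the 10 genes this held for Epas1 and Arnt2. The intervals did not overlap with replicate 1 higher for Egln1 alone among the 10, and for 3.95% of the 9196. Scaled by TMM or by DESeq2 in place of the total, Epas1 and Egln1 stayed apart in the same direction, Arnt2 did not, and Egln2, Vhl and Hif1an joined Egln1 as higher in replicate 1. Under these scalings 28.3% and 26.2% of the 9196 genes were higher in replicate 1 and 4.85% and 5.02% in replicate 2. Scaled by the total over protein-coding genes, Egln1 was no longer apart, and 2.82% of the genes were higher in replicate 1 and 14.5% in replicate 2.

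Of 10 endothelial markers, 2 had a count in either library. Of these 2, 1 had a difference between the libraries in the direction of Epas1, against 9.57% of the 9196 protein-coding genes with a count. This was Pecam1, an adhesion molecule of endothelial cells, with 1 count in replicate 1 and 11 in replicate 2. Kdr, the main VEGF receptor, had 1 and 0 counts, and the other 8, including Cdh5, Tek, Tie1 and Vwf, were at 0 in both libraries. The summed level of this list was 1.32 CPM in replicate 1 and 884 CPM in replicate 2, where all of it was Pecam1. The part of other cells in the level of Epas1 was not tested, and in such libraries fewer cells of a type and less RNA per cell cannot be told apart. Fibroblast markers were counted in both libraries, 6 and 3 of 12 at 3 counts, against 32.7% and 3.81% of protein-coding genes. Dcn had 2281 and 0 counts, Col1a2 910 and 6, Pdgfra 726 and 2 and Col1a1 401 and 0. Other fibroblast markers were at or near 0, Lum and Pdgfrb with 0 in both libraries and Vim and Thy1 with 1 and 0 each. For Lum 100% of the exonic bases lay in 1 transcript only, for Thy1 62.1%, for Vim 58.4% and for Pdgfrb 2.30%. Dcn was higher in replicate 1 by CPM, with intervals that did not overlap, against 3.95% of the 9196 protein-coding genes with a count. Col3a1, with 58 and 3 counts, Fn1, with 1 and 5, and Postn, with 2 and 2, were higher in replicate 2 in the same way, against 9.57%. The summed level of the list was 2917 CPM in replicate 1 and 1447 CPM in replicate 2. Granulosa cell markers reached 3 counts for 7 and 0 of 15 genes, against the same 32.7% and 3.81%, and their sum was 622.9 and 482 CPM. Kitl had 453 and 1 counts, Fst 229 and 0, Gja1 224 and 1 and Inhba 26 and 0. Foxl2 and Amh were at 0 in both libraries. Fshr, with 0 and 2, was higher in replicate 2 with intervals that did not overlap, against 9.57% of the 9196 genes. The 2 counts of Fshr, like the 2 of Postn in replicate 2, lie below the 3 counts that 0 allows.

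**Figure D2:**
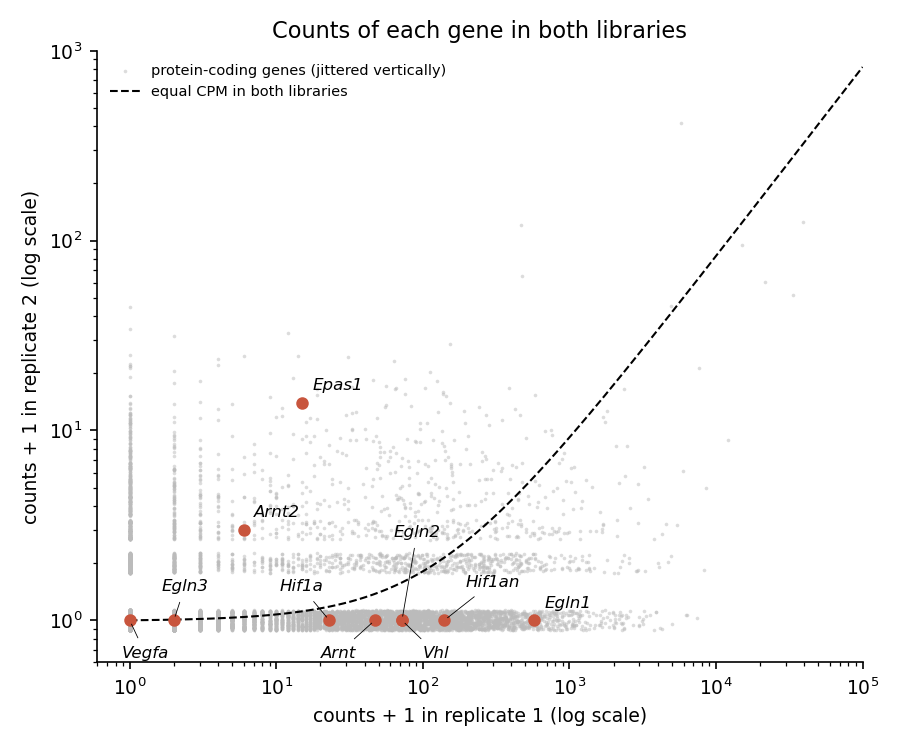
Counts of each gene in replicate 1 (horizontal) against replicate 2 (vertical), with 1 added and both axes on a log scale. Grey points are protein-coding genes, red points are the 10 genes, and the dashed line marks equal CPM. Epas1 and Arnt2 lie above the line, while Egln1, at 573 and 0 counts, lies below it.

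The proportion of the alpha subunits differed between the libraries and depended on the length used. Epas1 held 40.2% of the FPKM of both alpha subunits in replicate 1, where 14 of 36 counts were its own (38.9%, 23.1 to 56.5), and 100% in replicate 2, with 13 of 13 counts (75.3 to 100). These count intervals do not overlap. Of the exonic bases of Hif1a, 20.6% belonged to 1 ID only, against 95.4% for Epas1. Per base of 1 ID, the share of Epas1 in replicate 1 was 12.7%. Hif1a was the higher of the pair in replicate 1 by either length, though its FPKM interval (1.54 to 3.72) overlapped that of Epas1. Per base of 1 ID, Hif1a stood at 11.9 and Epas1 at 1.73 CPM per kilobase, and these intervals did not overlap. In addition, 16 of the 22 counts of Hif1a (72.7%) lay on a transcript annotated as a retained intron, 2 on a processed transcript and 4 on IDs of its proteins. Hif1a shares 478 exonic bases with other genes, among them an antisense gene, and without the strand their reads cannot be told apart.

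Of the beta subunits, Arnt was the more abundant in replicate 1. Arnt encodes the general partner of the alpha subunits and lies on chromosome 3, 95434388 to 95497240 on the plus strand, and Arnt2, a homologue best known from neurons, lies on chromosome 7, 84246278 to 84410176 on the minus strand. Arnt had 46 counts in replicate 1, which is 30.3 CPM (22.2 to 40.4) or an FPKM of 3.79, and 0 in replicate 2. Arnt2 had 5 counts in replicate 1, which is 3.30 CPM (1.07 to 7.69) or an FPKM of 0.429, and 2 counts in replicate 2, which is 161 CPM (19.5 to 581). Those 2 counts lie below the 3 counts that 0 allows, and the ratio of 48.8 between the libraries had an interval of 4.64 to 297.9. Arnt held 89.8% of the FPKM of the beta subunits in replicate 1, with 46 of 51 counts (90.2%, 78.6 to 96.7), and 0 of 2 counts in replicate 2, which allows a share of up to 84.2%. Per base of 1 ID, the share in replicate 1 was 79.0%. The 10 coding transcripts of Arnt2 lie under 8 protein IDs but were each taken as an ID, so its bases of 1 ID are a lower bound. Of the 46 counts of Arnt, 41 (89.1%) lay on transcripts with a retained intron and 5 on an ID of its protein.

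Most counts of Hif1a and Arnt thus lay on IDs of intron-retaining transcripts, but few of the bases of Arnt that could be counted were coding. Of the 3158 bases of Arnt that belonged to 1 ID, 462 belonged to a protein-coding ID, so 85.4% of the bases that could be counted belonged to other IDs. For Hif1a these were 766 of 1214 bases, and 36.9% belonged to other IDs, whereas 72.7% of its counts lay on a retained intron transcript. Which transcripts the cells contained cannot be read from this split. Over all IDs, 1.51% of counts lay on such transcripts in replicate 1 and 14.6% in replicate 2. Of the 10 genes they held 57 of 942 counts (6.05%) in replicate 1 and 0 of 15 in replicate 2, and all 57 were on Hif1a and Arnt. For the other 7 genes with a count, every count lay on IDs of their proteins.

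**Figure D3:**
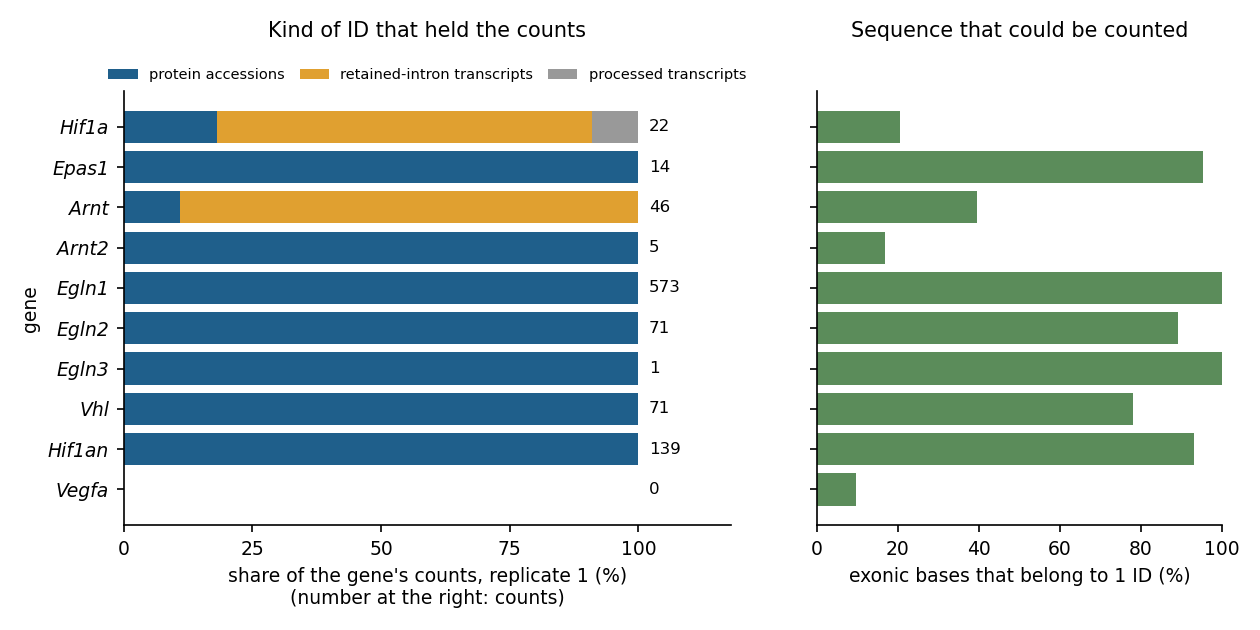
Left, share of each gene's counts in replicate 1 (%) by the kind of ID that held them, with the number of counts at the right of each bar; right, exonic bases that belong to 1 ID (%). Of the 22 counts of Hif1a, 16 were on a retained intron transcript, and of the 46 of Arnt, 41 were, while the other genes were counted on protein IDs only. The right panel runs from 9.75% for Vegfa to 100% for Egln1 and Egln3, and its values for Vegfa and Arnt2 are lower bounds.

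The prolyl hydroxylases were led by Egln1, which encodes PHD2, the main oxygen sensor of the pathway. Egln1 lies on chromosome 8, 124908587 to 124949324 on the minus strand. It had 573 counts in replicate 1, which is 377.7 CPM (347 to 410) or an FPKM of 105 (96.7 to 114), and 0 in replicate 2. In replicate 1, 481 of the 19127 protein-coding genes had a higher FPKM. Replicate 2 would have held 4.70 counts at that CPM and 44.7 with the TMM factors. Egln2, which encodes PHD1, had 71 counts, or 46.8 CPM (36.5 to 59.0) and an FPKM of 16.7 (13.1 to 21.1), in replicate 1 and 0 in replicate 2. It lies on chromosome 7, 27158658 to 27166802 on the minus strand. Egln3, which encodes PHD3 and is itself a known target of HIF, lies on chromosome 12, 54178981 to 54203860 on the minus strand. It had 1 count in replicate 1, which is 0.659 CPM (0.0167 to 3.67), and 0 in replicate 2.

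In replicate 1 the FPKM of Egln1 lay above that of Egln2, and that of Egln2 above that of Egln3, with intervals that did not overlap. Egln1 held 86.1% of the FPKM of the 3 hydroxylases, with 573 of 645 counts (88.8%, 86.1 to 91.2), and 84.7% per base of 1 ID. All exonic bases of Egln1 and of Egln3 belonged to 1 ID. The ID that held the counts of Egln1 had a pair of neighbouring genes as further candidates and was given to Egln1 by a rule added after its values were seen. Without that rule Egln1 had no ID with counts, and 7 of the 10 genes reached 3 counts in replicate 1. In replicate 2 the 3 hydroxylases had 0 counts, and no share could be given.

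Vhl and Hif1an, the other negative regulators, were counted in replicate 1 only. Vhl encodes the substrate receptor of the ubiquitin ligase and lies on chromosome 6, 113623959 to 113631633 on the plus strand. It had 71 counts, or 46.8 CPM and an FPKM of 15.6 (12.2 to 19.7), in replicate 1 and 0 in replicate 2. Hif1an lies on chromosome 19, 44562850 to 44576274 on the plus strand, and had 139 counts, or 91.6 CPM (77.0 to 108) and an FPKM of 13.9 (11.7 to 16.4), in replicate 1 and 0 in replicate 2. At the CPM of replicate 1, replicate 2 would have held 0.582 counts of Vhl and 1.14 of Hif1an, both under 3 counts. With the TMM factors it would have held 5.53 and 10.8, and both were then higher in replicate 1.

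By FPKM in replicate 1 the order was Egln1, Egln2, Vhl, Hif1an, Arnt, Hif1a, Epas1, Arnt2 and Egln3, with Vegfa at 0. The gaps below Egln1 and below Hif1an exceeded the intervals. The neighbours Egln2, Vhl and Hif1an did not differ beyond their intervals, nor did Hif1a from Arnt or from Epas1, Epas1 from Arnt2, or Arnt2 from Egln3. The 4 negative regulators Egln1, Egln2, Vhl and Hif1an lay above all 4 subunits, at percentiles from 88.8 to 97.5 of protein-coding genes against 67.5 to 80.2 for the subunits, and Egln3, also a negative regulator, lay below them. Per base of 1 ID these 4 again lay above the subunits, but Hif1a, at 11.9 CPM per kilobase, no longer differed beyond its interval from Vhl, Egln2 (18.7) or Hif1an (14.9), nor did Arnt (9.60) from Hif1an.

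Vegfa, which encodes the main vessel growth factor and is the best known target of HIF, lies on chromosome 17, 46016993 to 46032369 on the minus strand. It was at 0 in both libraries, against a limit of 3 counts, or 1.98 CPM in replicate 1 and 241.1 CPM in replicate 2. Only 418 of its 4285 exonic bases (9.75%) belonged to 1 ID, and 0 of these to a protein-coding ID, so a count of 0 says little about transcription of Vegfa. Its 8 coding transcripts lie under 7 protein IDs but were each taken as an ID, so both numbers of bases are lower bounds. Of 9 other VEGF ligands and receptors, 3 (33.3%) reached 3 counts in replicate 1 and 0 in replicate 2, near the 32.7% and 3.81% of protein-coding genes. These were the coreceptors Nrp2, with 141 and 0 counts, and Nrp1, with 12 and 0, and the lymphatic growth factor Vegfc, with 37 and 0. Flt4, the receptor of VEGF-C, had 2 and 1.

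The rest of the pathway was described by fixed lists, each set against the 32.7% of protein-coding genes that reached 3 counts in replicate 1 and the 3.81% in replicate 2. The median CPM of protein-coding genes was 0 in both libraries. The VHL ligase list held 5 genes, its other subunits and Nedd8, a modifier of the cullin. Of these 5, 2 reached 3 counts in replicate 1 and 0 in replicate 2, with a median of 1.32 CPM in replicate 1. The adaptor Eloc had 540 and 0 counts, the RING subunit Rbx1 95 and 0, the scaffold Cul2 2 and 0 and the adaptor Elob 1 and 0. Of 15 other regulators of HIF alpha, 11 reached 3 counts in replicate 1 and 1 in replicate 2 (Rptor, 0 and 5 counts), with a median of 13.2 CPM in replicate 1. The chaperone Hsp90aa1 had 2221 and 1 counts, the coactivators Ep300 and Crebbp 222 and 0 and 202 and 0, and Siah2, a ubiquitin ligase for prolyl hydroxylases, 137 and 0.

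Of 15 further members of the bHLH-PAS family and its coactivators, 7 reached 3 counts in replicate 1 and 1 in replicate 2 (Npas1, 0 and 4 counts), with a median of 1.32 CPM in replicate 1. The coactivator Ncoa2 had 125 and 0 counts, the dioxin receptor Ahr 67 and 0, the circadian factor Clock 62 and 1 and the coactivator Ncoa3 30 and 0. Hif3a, the remaining alpha subunit gene, was at 0 in both libraries.

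Among known HIF targets, 11 of 19 genes of glycolysis and glucose uptake reached 3 counts in replicate 1 and 0 in replicate 2, with a median of 5.27 CPM in replicate 1. The pyruvate kinase Pkm had 5431 and 2 counts, the phosphofructokinase Pfkl 429 and 1, the hexokinase Hk2 304 and 1 and the phosphofructokinase Pfkp 71 and 2. The targets Ldha, Eno1 and Aldoa had 1 and 0 counts each and Pgk1 had 0 in both libraries, and 38.2%, 66.7%, 32.7% and 23.2% of their exonic bases lay in 1 transcript only. Of 24 other HIF targets, 14 reached 3 counts in replicate 1 and 1 in replicate 2, with a median of 14.2 CPM in replicate 1. The mitophagy receptor Bnip3 had 1989 and 0 counts, the haem oxygenase Hmox1 939 and 0, the cyclin Ccnd1 528 and 3 and the circadian repressor Bhlhe40 486 and 0. In these lists Bnip3, Hmox1, Pkm, Hsp90aa1 and Eloc were higher in replicate 1 with CPM intervals that did not overlap, against 3.95% of the 9196 protein-coding genes with a count. Rptor, Npas1 and the carbonic anhydrase Car12, the last with 0 and 2 counts, were higher in replicate 2 in the same way, against 9.57%. The 2 counts of Car12 lie below the 3 counts that 0 allows. The median CPM of each list was 0 in replicate 2.

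**Figure D4:**
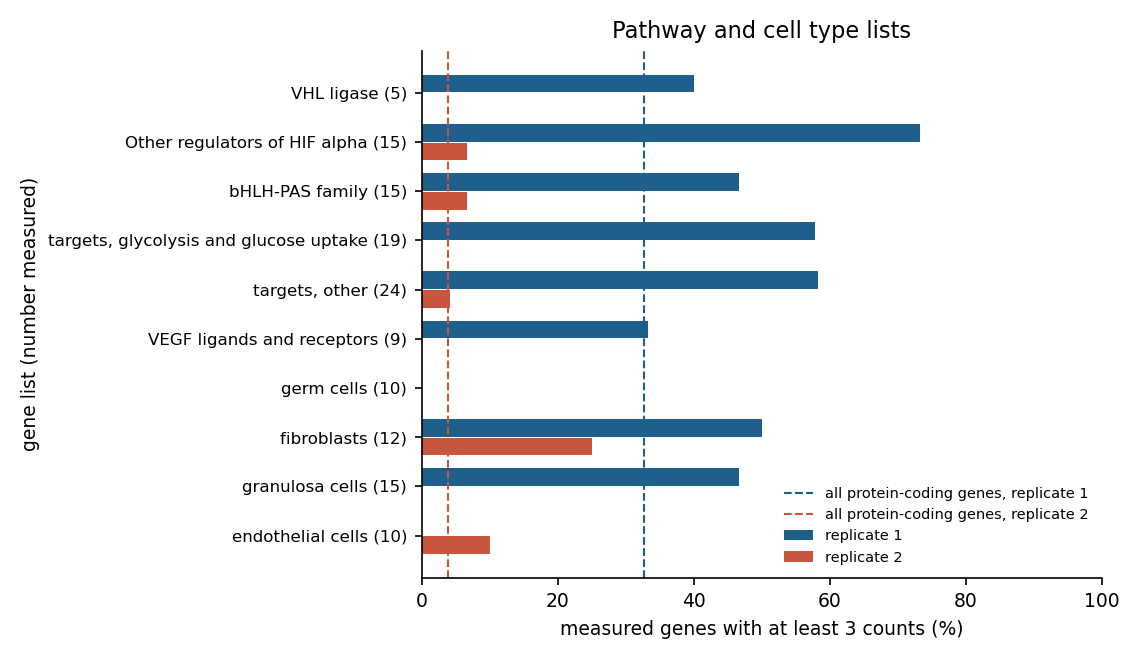
Percentage of measured genes of each list that reached 3 counts in replicate 1 and in replicate 2. Lines mark the percentage over all protein-coding genes, 32.7 and 3.81. The 15 other regulators of HIF alpha had 11 genes at 3 counts in replicate 1, and the 10 germ cell markers had 0.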

How the data were processed

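RNA-seq of differentiated FGSCs comprised 2 libraries of 1 group, made by a Smart-seq protocol from a few cells each. The deposited values are counts, whole numbers for each ID, which the authors neither normalized nor pooled. The submitters' processing notes name FastQC, Trim Galore, HISAT2 2.2.1, featureCounts and mm10, while the methods of the study name TopHat and FPKM from Cufflinks. Use of strand and of reads with several alignments is not given in the sources used here.

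Each library listed 129311 IDs, 76066 Ensembl transcripts and 53245 protein accessions without a gene name. GENCODE M21 (GRCm38) held 75192 of the Ensembl IDs. Because 99.98% of neighbouring IDs followed the order of start, an accession was placed in the gene whose unlisted transcripts fit its position, which gave 1 gene for 46806 accessions (87.9%). A rule on the first accession of an interval was added after Egln1 was seen to be ambiguous. With 50% of the known IDs hidden, 99.7% of 22320 placed IDs were placed in the right gene, and 98.7% of the 4767 that rested on the added rule. IDs of 1 gene held 90.5% and 93.9% of the counts.

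Counts were summed per gene and given per 1000000 counts (CPM) and per kilobase of exon union (FPKM). With 1 group there was no test, and libraries were compared by exact Poisson 95% intervals. The rule on intervals that do not overlap was tested on simulated counts. The 10 genes were all named, and of each list the up to 4 genes with most counts; others were chosen after their values were seen. Genes and lists were chosen with earlier results of these data known. Alternatives were the IDs used, the length, the count minimum, the background, the library total, the scaling and each replicate left out; the length in bases of 1 ID, the omission of the added rule and the scaling of the Epas1 ratio and of the expected counts were chosen after seeing the data. Tools were R 4.3.3 with edgeR 4.0.16 and DESeq2 1.42.0, for scaling factors only, and Python 3.11.15 with scipy 1.17.1, numpy 2.4.6, pandas 2.3.3 and matplotlib 3.10.9.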

Additional observations from a re-analysis of the deposited data

How the results depend on the processing

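Of 63 values recomputed under alternatives, 40 stayed within their limits and 23 moved. With only Ensembl IDs, 2 genes reached 3 counts in replicate 1 and 0 in replicate 2, 0 genes had intervals that did not overlap, the share of Epas1 among the alpha subunits in replicate 1 was 0% and that of Arnt among the beta subunits was 100%. With a minimum of 1 count, 2 genes passed in replicate 2. Over all genes the background was 15.7% and 2.09% in replicates 1 and 2, and over genes with a count 58.3% and 7.75%. Per base of 1 ID the share of Epas1 in replicate 1 was 12.7%. The share of Egln1 was 82.4% by the longest transcript and 0% without the rule on the first accession, which left it no ID. With TMM and with DESeq2 size factors, 5 genes had intervals that did not overlap, against 3, and the ratio of Epas1 between the libraries was 11.9 and 13.9, against 113. Leaving out each replicate in turn, set against both libraries summed, gave 1 to 8 genes at 3 counts (8 summed), a share of Epas1 of 40.2% to 100% (56.4% summed) and of Arnt of 0% to 89.8% (86.3% summed). The share of Egln1 had no value without replicate 1, and the non-overlap needs both libraries. The causes were not tested beyond what each alternative leaves out. No paired analysis was possible because there was only 1 group. Depth limits replicate 2, where 9 of the 10 genes would have had under 3 counts at their level in replicate 1 by the total counts and 5 with TMM or DESeq2.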
